A study of Mus musculus with 12 samples.

Results

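The genes described here are 5 members of a hormone and receptor system: Fgf21 and Gdf15, which encode hormones secreted under cell stress, Klb and Fgfr1, which encode the co-receptor and a main receptor of FGF21, and Gfral, which encodes the receptor of GDF15. They are 5 of the 38924 genes in the deposited tables, found by symbol, each with 1 gene identifier. They were chosen by their expected counts and TPM values (a level per library, corrected for transcript length) in P278KY against WT spinal cord. Those values are therefore given as a description, with no test of genotype. Of the 5 genes, 4 passed the filter on low counts and belong to the 17980 genes fitted; Gfral did not pass. Fgf21 and Gdf15 passed only through the P278KY groups, so their difference between the genotypes comes with their passing.

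Whole spinal cord was profiled by RNA-seq in 12 mice at 8 weeks of age. P278KY mice were heterozygous, with 1 copy of Gars carrying the P278KY mutation. Gars encodes glycyl-tRNA synthetase, which loads glycine onto its tRNAs, and dominant mutations of it cause Charcot-Marie-Tooth neuropathy. There were 3 P278KY females (mice 3, 4 and 9) and 3 P278KY males (mice 6, 7 and 8). WT mice carried no mutant copy and comprised 3 females (mice 1, 2 and 10) and 3 males (mice 5, 11 and 12). All 12 mice shared a mixed B6J;CAST strain background, and each library came from 1 mouse. The labels do not say which mice were littermates. The question the design addresses is what the mutant allele changes in the cord transcriptome.

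FGF21 belongs to the endocrine fibroblast growth factors, which travel in blood because they bind heparan sulfate weakly. It acts where beta-Klotho, the product of Klb, holds it to an FGF receptor, mainly FGFR1, and the receptor then signals through the adaptor FRS2 and the ERK kinases. The liver is its main source in fasting, under the nuclear receptor PPAR alpha, while muscle, fat and other tissues make it when the integrated stress response raises the transcription factor ATF4. GDF15 is a distant member of the TGF-beta family that binds GFRAL, a receptor described in the hindbrain, which signals with the kinase RET; its gene responds to ATF4, CHOP and p53.

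The promoter of Fgf21 is shown because it holds a match to an element that ATF4 and C/EBP factors bind, and the first listed promoter of Gdf15 is shown because it holds none. Both run from 250 bases before to 50 bases after the gene's start and are taken from RefSeq (GRCm38.p6), on the strand of the gene. The Fgf21 window is chr7:45615441-45615740 and the Gdf15 window chr8:70632407-70632706, both on the minus strand. Capitals mark the motif match.
Fgf21: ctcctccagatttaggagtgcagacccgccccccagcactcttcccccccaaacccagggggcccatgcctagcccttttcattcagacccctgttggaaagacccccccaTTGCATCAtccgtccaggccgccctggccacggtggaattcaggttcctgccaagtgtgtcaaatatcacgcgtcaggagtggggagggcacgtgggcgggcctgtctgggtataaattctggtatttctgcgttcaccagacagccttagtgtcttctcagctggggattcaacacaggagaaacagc
Gdf15: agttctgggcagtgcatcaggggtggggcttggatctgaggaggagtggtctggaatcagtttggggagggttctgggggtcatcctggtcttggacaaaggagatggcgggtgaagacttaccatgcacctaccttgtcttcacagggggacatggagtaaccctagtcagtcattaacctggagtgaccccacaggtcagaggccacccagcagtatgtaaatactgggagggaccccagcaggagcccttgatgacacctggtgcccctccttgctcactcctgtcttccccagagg
The motif searched was TGATGNAA, the core of the C/EBP-ATF response element, on both strands. In Fgf21 it lies on the opposite strand, so that the gene's strand reads TTGCATCA, from position -139 to position -132 relative to the start. It was found in 3.97% of the 32851 promoter windows of the table. The cyclic AMP response element TGACGTCA was searched in the same way; it shares no full match with the first motif and was found in 1.79% of windows. The Fgf21 window does not hold it. Neither sequence occurs in the 2 Gdf15 windows or in the windows of Klb and Gfral, and Fgfr1 was not matched in the table. A match is a description of the letters and not a bound site.

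The libraries held 26982140 to 39339999 expected counts. Gars averaged 140.6 ± 2.95 CPM (counts scaled to a common library size) in P278KY cord and 128.7 ± 6.52 CPM in WT cord (SD, n = 6 each), and since the mutant allele is still transcribed this level does not check the labels. Neuron markers summed to 2678 to 2875 CPM in P278KY libraries and 2607 to 3194 CPM in WT libraries. The overlap came from WT female 1 alone, and the other WT mice had 2992 to 3194 CPM. Of 5 neuron markers, 1 passed as higher and 1 as lower in P278KY cord in the genotype test given below. Oligodendrocyte markers summed to 12810 to 15550 CPM in P278KY and 12980 to 16680 CPM in WT. Skeletal muscle markers were raised in mice 1 to 4, which include both genotypes, and sensory ganglion neuron markers in mice 7, 10 and 11. Over all genes, 956 of 17980 (5.32%) passed an adjusted p of 0.05 in edgeR's quasi-likelihood test for genotype, 425 (2.36%) higher and 531 (2.95%) lower in P278KY cord. On the log2(TPM + 1) scale with limma the split was 1358 higher and 248 lower. The median log2 change was 0.062 on that scale and -0.003 by edgeR.

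Fgf21 (ENSMUSG00000030827, chr7:45613886-45615490, minus strand, GRCm38) was expressed in every P278KY cord and almost unread in WT cord. The P278KY females 3, 4 and 9 had 165, 177 and 153 counts, and the P278KY males 6, 7 and 8 had 186, 164 and 179 counts. The WT females 1, 2 and 10 had 1, 0 and 1 counts, and the WT males 5, 11 and 12 had 1, 2 and 0 counts. The genotypes did not overlap, and the lowest P278KY mouse stood far above the highest WT mouse. As a level, Fgf21 averaged 13.3 ± 0.965 TPM in P278KY cord and 0.0667 ± 0.0631 TPM in WT cord (SD, n = 6 each). The P278KY mice summed to 1024 counts and the WT mice to 5, a ratio per library size of 186 with an exact 95% interval of 79.5 to 575 that covers counting error only. The fitted log2 change was 7.36 (SE 0.31). Such a fit leans on its prior count when WT libraries hold so few reads.

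The level of Fgf21 was even among P278KY mice. Its coefficient of variation over the 6 libraries was 8.17%, where counting error alone gives 7.66%. Females averaged 13.4 ± 0.548 TPM and males 13.2 ± 1.41 TPM within P278KY (SD, n = 3 each). The sex effect over all mice, male minus female, was 0.02 on the log2 scale (SE 0.24, edgeR adjusted p = 0.9898). The count ratio of P278KY over WT was 251 in females (95% interval 69.1 to 2079) and 144 in males (48.9 to 699). The interaction of genotype and sex was -0.69 (SE 0.83, edgeR adjusted p = 0.9999). In P278KY cord Fgf21 lay above 48.85% of the fitted genes in TPM, in WT cord above 0.0278% of them.

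Gdf15 (ENSMUSG00000038508, chr8:70629393-70632456, minus strand) showed the same separation at a lower level than Fgf21. P278KY females 3, 4 and 9 had 19, 25 and 28 counts, and P278KY males 6, 7 and 8 had 43, 17 and 31 counts. WT females 1, 2 and 10 had 3, 1 and 1 counts, and WT males 5, 11 and 12 had 4, 1 and 3 counts. Every P278KY mouse was above every WT mouse, and all 6 WT mice had at least 1 count. Gdf15 averaged 1.26 ± 0.342 TPM in P278KY cord and 0.113 ± 0.072 TPM in WT cord (SD, n = 6 each). The summed counts were 163 in P278KY and 13 in WT, a ratio of 11.4 (95% interval 6.48 to 21.9), and the fitted log2 change was 3.43 (SE 0.36). Among all fitted genes, 309 (1.72%) had every P278KY mouse above every WT mouse in CPM; Fgf21 and Gdf15 are 2 of them by their choice.

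Gdf15 varied more among P278KY mice than Fgf21 did, with a coefficient of variation of 25.9% where counting alone gives 19.2%. Male 6 was highest at 1.07 CPM and male 7 lowest at 0.546 CPM. The count ratio was 14.6 in females (95% interval 5.98 to 46.4) and 9.27 in males (4.51 to 22.1). Neither the sex effect (0.31, SE 0.33, edgeR adjusted p = 0.8353) nor the interaction (-0.63, SE 0.75, edgeR adjusted p = 0.9999) passed the threshold. Over all genes 16 (0.089%) passed for sex. None (0%) passed for the interaction by edgeR, with 665 at an unadjusted p under 0.05, while the DESeq2 Wald test called 61 and limma voom 3; none of the 4 fitted members passed for sex or interaction by edgeR.

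**Figure D1:**
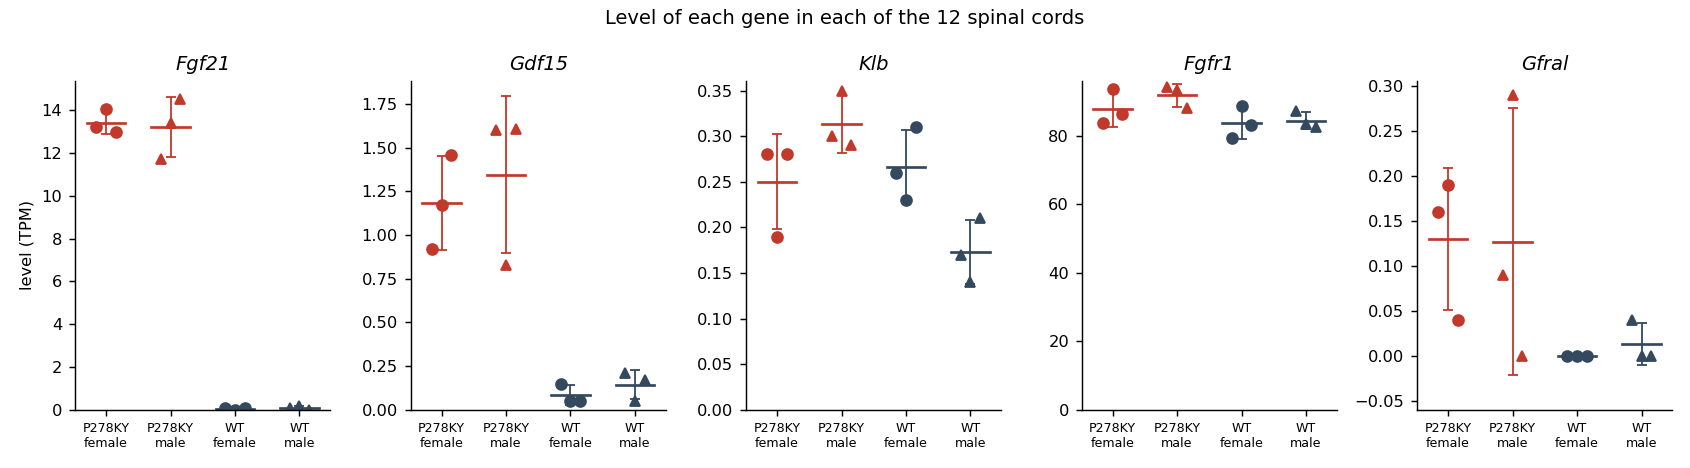
TPM of the 5 genes in each of the 12 cords, by genotype and sex, on a linear axis per gene; points are mice (circles female, triangles male), long lines are means and error bars SD over 3 mice. Fgf21 and Gdf15 do not overlap between P278KY and WT, Klb and Fgfr1 do, and Gfral stays under 0.3 TPM.

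On the receptor side, Klb (ENSMUSG00000029195, chr5:65348314-65384007, plus strand) was read at a low level in all 12 mice. P278KY females 3, 4 and 9 had 15, 10 and 14 counts, and P278KY males 6, 7 and 8 had 20, 18 and 15 counts. WT females 1, 2 and 10 had 14, 12 and 18 counts, and WT males 5, 11 and 12 had 9, 7 and 10 counts. The genotypes overlapped in females, while in males every P278KY mouse was above every WT mouse. With 3 mice per group and so few counts, chance can give such a split. Its share over all fitted genes was not counted. Klb averaged 0.282 ± 0.0519 TPM in P278KY cord and 0.22 ± 0.0613 TPM in WT cord (SD, n = 6 each). The count ratio was 1.2 (95% interval 0.866 to 1.65), with 0.899 in females (0.569 to 1.42) and 1.66 in males (1.02 to 2.77). The difference between the sexes in this effect was 0.87 on the log2 scale and did not pass (SE 0.44, edgeR adjusted p = 0.9999).

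Fgfr1 (ENSMUSG00000031565, chr8:25513654-25575718, plus strand) was abundant and close to equal between the genotypes. It ranged from 156.2 to 170.3 CPM in P278KY mice and from 154.5 to 165.1 CPM in WT mice, so the ranges overlapped. The P278KY mean was 160.9 ± 5.35 CPM and the WT mean 159.0 ± 4.75 CPM (SD, n = 6 each). The fitted log2 change was 0.02 (SE 0.03). On the log2(TPM + 1) scale the difference was 0.095, on a scale where the median over all fitted genes was 0.062. Sex (0.03, edgeR adjusted p = 0.7903) and interaction (0.04, edgeR adjusted p = 0.9999) did not pass. A predicted antisense gene, Gm16159, lies within Fgfr1, and the sources used here do not say whether strand was used in counting.

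Gfral (ENSMUSG00000059383, chr9:76164102-76213657, minus strand) was at the edge of detection. P278KY females 3, 4 and 9 had 5, 5 and 1 counts, and P278KY males 6, 7 and 8 had 3, 8 and 0 counts. In WT mice only male 5 had a count, of 1. The summed counts were 22 in P278KY and 1 in WT, a ratio of 20.01 whose 95% interval runs from 3.23 to 826. Over the P278KY mice the variance of the counts was 2.48 times that of counting error, so this interval is too narrow. Reads occurred in 5 of 6 P278KY mice and 1 of 6 WT mice, and P278KY male 8 had none, so the genotypes overlapped. The highest level was 0.29 TPM. The mean transcript length was 1829 bases in P278KY female 4, male 6 and female 9 and in WT male 5. In GENCODE M21 that is the length of a Gfral transcript typed as nonsense-mediated decay. The protein-coding transcript has 2080 bases. These few reads cannot place the receptor in a cell type.

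Per length, Fgf21 took the third place among 18 FGF ligand genes in P278KY cord and the fourteenth in WT cord. In WT its range of 0 to 0.17 TPM met those of Fgf17 and Fgf6, so its place there is not settled. Fgf1, a paracrine factor made by motor and sensory neurons, stood first with 116.6 ± 4.51 TPM in P278KY and 143.1 ± 10.6 TPM in WT (SD, n = 6 each). Fgf9 followed with 29.6 TPM in P278KY and 30.8 TPM in WT, and Fgf18 came after Fgf21 with 9.45 TPM in P278KY and 9.69 TPM in WT. The ranges of Fgf21 over P278KY mice (11.7 to 14.6 TPM) met neither those of Fgf9 nor those of Fgf18. The other endocrine ligands stayed low: Fgf23 averaged 0.412 TPM in P278KY and 0.317 TPM in WT, and Fgf15 0.0333 TPM in P278KY and 0.0167 TPM in WT.

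**Figure D2:**
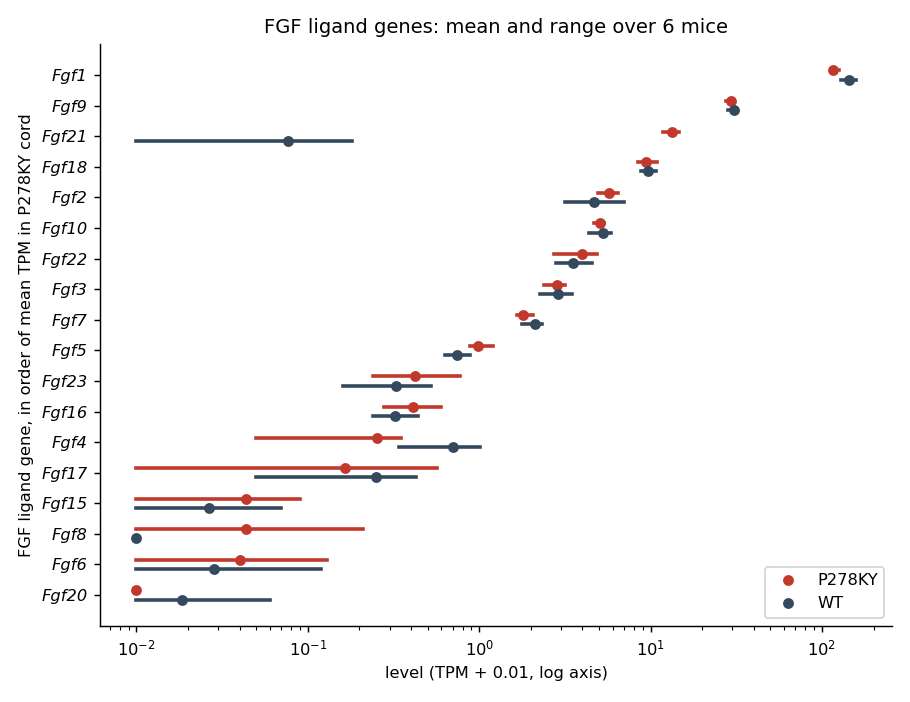
Mean (points) and range over 6 mice (lines) of TPM + 0.01 for 18 FGF ligand genes, on a log axis, with P278KY above WT in each row. Fgf21 is the ligand whose genotypes lie far apart, at 13.3 TPM in P278KY and 0.0667 TPM in WT.

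Of 12 other FGF ligand genes fitted, 4 fell in P278KY cord and none rose, beside 2.95% lower and 2.36% higher over all fitted genes. The median log2 change of the 12 was -0.09, beside -0.0031 over all fitted genes. Fgf1 was at 219.6 ± 5.42 CPM in P278KY and 282.2 ± 21.4 CPM in WT (log2 change -0.36, SE 0.04, edgeR adjusted p = 0.000543), with every P278KY mouse below every WT mouse. The share of fitted genes separated in that direction was not counted. The others that fell were Fgf4 (log2 change -1.56), Fgf7 (-0.43), a stromal factor for epithelia, and Fgf9 (-0.145), a neuronal factor; their edgeR adjusted p-values were 0.0363, 0.0416 and 0.0416. These 3 calls sit at the threshold: leaving out 1 mouse ended the call of Fgf4 for 8 of 12 mice, of Fgf7 for 12 of 12 and of Fgf9 for 9 of 12. Motor neuron markers moved alongside, with 3 of 5 lower and sums of 118.6 to 138.8 CPM in P278KY and 136.7 to 207.8 CPM in WT, where WT female 1 alone lay within the P278KY range. In bulk cord, fewer cells of a type and less RNA per cell cannot be told apart, and the part of this in the fall of Fgf1 was not tested.

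Among FGF receptors and Klotho genes, Klb had the lowest mean level of 8 in both genotypes and Fgfr1 the third highest. Klb ranged from 0.19 to 0.35 TPM in P278KY and 0.14 to 0.31 TPM in WT. Fgfr4 ranged from 0.25 to 0.88 TPM in P278KY and 0.31 to 1.17 TPM in WT. These ranges meet, so the last place is not settled. Fgfr3, a receptor gene strong in astrocytes, had 151.3 ± 8.5 TPM in P278KY and 132.7 ± 5.86 TPM in WT, and Fgfr2 94.5 ± 8.68 TPM in P278KY and 104.3 ± 11.96 TPM in WT (SD, n = 6 each). The ranges of Fgfr1 and Fgfr2 overlapped over P278KY mice, so their order there is not settled, but did not meet over WT mice, at 79.4 to 88.7 TPM for Fgfr1 and 90.8 to 120.2 TPM for Fgfr2. Of the 6 genes of this list other than Klb and Fgfr1, 2 fell and none rose (median log2 change -0.237). Over all fitted genes 2.95% were lower and 2.36% higher. Lctl, a Klotho relative also called gamma-Klotho, was at 1.08 ± 0.35 CPM in P278KY and 4.06 ± 0.834 CPM in WT (log2 change -1.91, SE 0.22, edgeR adjusted p = 0.000353), and the genotypes did not overlap. How many fitted genes separate downward in this way was not counted. Fgfrl1, a receptor that lacks the kinase domain, fell with a log2 change of -0.32 (SE 0.07, edgeR adjusted p = 0.0127).

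Downstream of the receptor, most relay genes did not pass, beside 5.32% passing over all fitted genes. Of 22, Plcg1, a phospholipase recruited by FGF receptors, rose (log2 change 0.14, edgeR adjusted p = 0.0278) and Mapk3, which encodes ERK1, fell (-0.145, edgeR adjusted p = 0.0336). Of 17 fitted genes that answer FGF and ERK signals, such as the feedback inhibitors of the Sprouty and Dusp families, Phlda1 fell (-0.30, edgeR adjusted p = 0.0494) and 16 did not pass. The median of these 17 was -0.112 and 1 of them had a positive change. Dusp6 was at 16.5 ± 2.02 CPM in P278KY and 16.8 ± 2.01 CPM in WT (SD, n = 6 each). Spry4, the 1 gene with a positive change, was at 21.3 ± 1.57 CPM in P278KY and 20.5 ± 2.03 CPM in WT (SD, n = 6 each). Etv4 (log2 change -0.287, edgeR adjusted p = 0.0716) and Spry1 (-0.24, edgeR adjusted p = 0.134) were lower without passing. All these examples were chosen after their values were seen. Leaving out 1 mouse ended the call of Plcg1 for 8 of 12 mice, of Mapk3 for 7 and of Phlda1 for 9. On the log2(TPM + 1) scale, where the median log2 change over all fitted genes was 0.062, limma's adjusted p was 0.325 for Mapk3 and 0.106 for Phlda1.

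Around GDF15, the partner kinase Ret fell to 120.6 ± 4.13 CPM in P278KY, against 139.7 ± 7.39 CPM in WT (SD, n = 6 each; log2 change -0.21, SE 0.03, edgeR adjusted p = 0.00176). Gfra1, the GDNF co-receptor related to GFRAL, fell too (log2 change -0.23, SE 0.04, edgeR adjusted p = 0.00456), and 6 of the 8 RET and GFRA genes fitted did not pass. Over all fitted genes 2.95% were lower. On the log2(TPM + 1) scale, where the median log2 change over all fitted genes was 0.062, limma's adjusted p was 0.0622 for Ret and 0.226 for Gfra1. The fall of both stands beside the lower motor neuron markers given above, whose part was not tested. Among 22 TGF-beta family ligands Gdf15 ranked fifteenth in P278KY and twenty-first in WT by mean TPM. Its P278KY range (0.83 to 1.61 TPM) met those of Lefty1 (1.0 to 3.19 TPM) and Gdf9 (0.42 to 2.29 TPM), so the place of Gdf15 there is not settled. Of 19 others fitted, Gdf11 fell (log2 change -0.22, SE 0.04, edgeR adjusted p = 0.00485, and limma adjusted p = 0.083 on the log2(TPM + 1) scale) and 18 did not pass. Of 7 proteases that cut these hormones or their receptors, Pcsk6, a proprotein convertase, fell (-0.159, edgeR adjusted p = 0.0359); this call ended when 1 mouse was left out for 8 of 12 mice, and limma's adjusted p on the log2(TPM + 1) scale was 0.462.

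Genes that share known regulators with Fgf21 and Gdf15 were counted next. Of 34 ATF4 targets, 16 rose and none fell in P278KY cord, beside 2.36% higher over all genes, with a median log2 change of 0.344. Adm2, a secreted peptide of the calcitonin family, summed to 163 counts in P278KY and 2 counts in WT (edgeR adjusted p = 2.62e-05). The arginine and lysine transporters Slc7a1 (log2 change 0.55, SE 0.05) and Slc7a3 (0.76, SE 0.07) rose, as did Sesn2, a leucine sensor that restrains mTORC1 (0.47, SE 0.04), with edgeR adjusted p-values of 3.98e-05, 6.27e-05 and 8.65e-05. Among the 18 that did not pass was Ppp1r15a, which lies 89.2 kb from Fgf21 (log2 change -0.06, edgeR adjusted p = 0.7999). This list was chosen with the rise already known from these data.

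Of 20 fitted PPAR alpha targets none rose and 1 fell, which is near the 2.95% lower over all genes. That gene was Cpt1a, which admits long-chain fatty acids into mitochondria, at 53.3 ± 2.74 CPM in P278KY and 67.5 ± 1.53 CPM in WT (SD, n = 6 each; log2 change -0.34, SE 0.04, edgeR adjusted p = 0.000258). No gene passed among 20 p53 targets, beside 5.32% passing over all fitted genes. Cdkn1a, the cell cycle inhibitor p21, had the smallest p there (log2 change -0.30, edgeR adjusted p = 0.1124). None of 14 mitochondrial stress sensors and proteases passed either, with Hspa9 first (0.10, edgeR adjusted p = 0.0803). At the share over all genes, lists of this size would hold few calls, so their lack is no result about these genes. Of 14 other stress-secreted factors, Apln (-0.56, SE 0.08, edgeR adjusted p = 0.00233) and Metrnl (-0.42, SE 0.08, edgeR adjusted p = 0.0101), which encode apelin and meteorin-like, fell, and none rose. Over the 12 lists 17 genes were called higher and 15 lower. On the log2(TPM + 1) scale limma called 29 higher and 7 lower, where the split over all fitted genes was 1358 and 248.

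**Figure D3:**
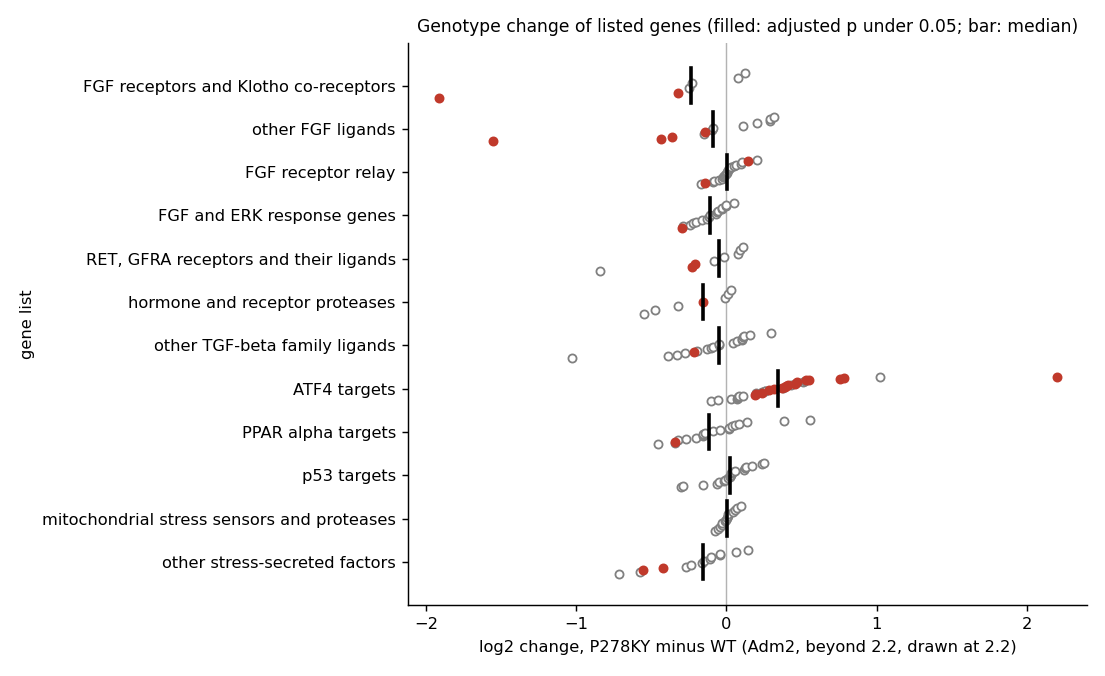
Log2 change, P278KY minus WT, of each fitted gene in 12 lists; filled points passed an edgeR adjusted p of 0.05, open points did not, and black bars are list medians. The ATF4 targets lie mostly to the right (median 0.344), while the medians of the PPAR alpha, p53 and mitochondrial lists are -0.117, 0.026 and 0.002.

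Changes of the size seen at Fgf21 and Gdf15 were not found at the fitted genes around them. Within 100 kb of the Fgf21 start lie the starts of 14 protein-coding genes, of which 12 were fitted and none passed, with log2 changes from -0.557 to 0.506. Of 10 around Gdf15, 8 were fitted and none passed (-0.089 to 0.431). Fut1, a fucosyltransferase gene that starts 1.8 kb upstream of Fgf21 on the opposite strand (chr7:45617289-45621059, not overlapping Fgf21), was below the filter. P278KY females 3, 4 and 9 had 5, 5 and 10 Fut1 counts and P278KY males 6, 7 and 8 had 13, 8 and 14, while WT females 1, 2 and 10 had 4, 1 and 3 counts and WT males 5, 11 and 12 had 1, 1 and 0. The genotypes did not overlap, and the summed counts of 55 in P278KY and 10 in WT gave a ratio per library size of 5.001 (95% interval 2.52 to 11.01). With no filter, over 27273 genes, the log2 change was 2.26 (SE 0.54, edgeR adjusted p = 0.0318). Izumo1, the next gene beyond Fut1, had 25.3 summed counts in P278KY and 25.2 in WT.

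**Figure D4:**
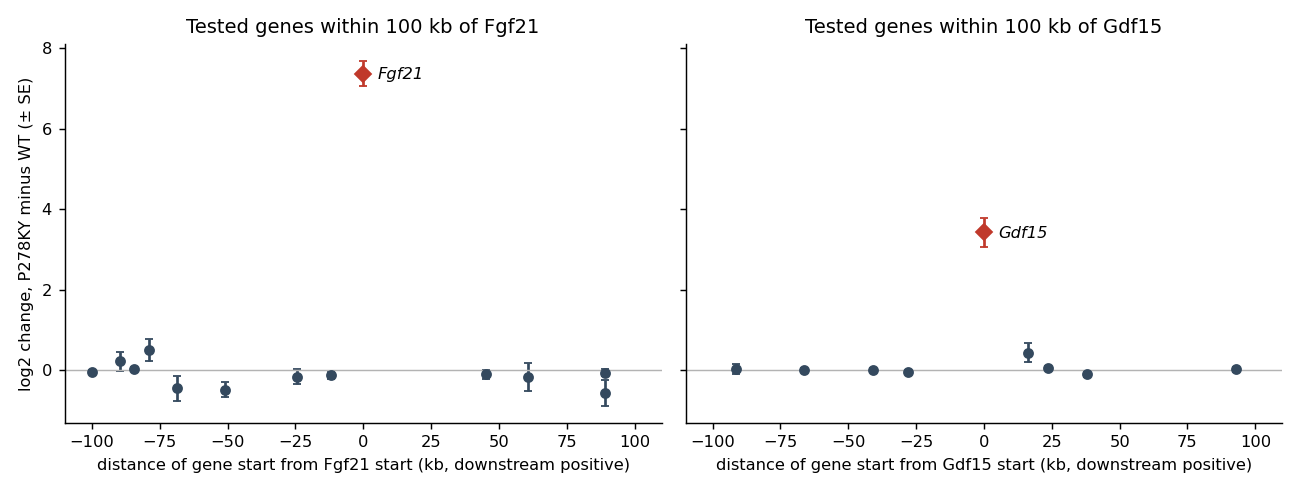
Log2 change, P278KY minus WT, with SE for each fitted gene within 100 kb, against the distance of its start from that of Fgf21 (left) or Gdf15 (right); diamonds are the hormone genes. All fitted neighbours lie between -0.557 and 0.506, against 7.36 for Fgf21 and 3.43 for Gdf15; Fut1 is absent because it was not fitted.

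Likeness of pattern was measured over the 12 libraries as the root mean square distance between standardised log2 CPM values, among 15499 genes with a mean of at least 1 CPM. The genes nearest to Fgf21 were Cdsn, which encodes corneodesmosin (distance 0.172), the glial glutamate transporter gene Slc1a3 (0.216), Slc7a3 (0.219), Cpne7 (0.22) and Sesn2 (0.258). Those nearest to Gdf15 were Cdsn (0.241), Hrk, a pro-death BCL2 family gene (0.247), Mars, the methionyl-tRNA synthetase gene (0.278), Mab21l2 (0.306) and Cpne7 (0.308). Cdsn and Cpne7 are on both lists, and the distance between Fgf21 and Gdf15 themselves was 0.309. Cdsn averaged 4.12 ± 0.565 CPM in P278KY and 0.282 ± 0.0599 CPM in WT (SD, n = 6 each). All these genes separate the genotypes in every mouse, as the pattern of Fgf21 and Gdf15 requires. Klb lay 1.1 from Fgf21 and Fgfr1 lay 1.29 from it; the nearest to Klb were Saal1, Lsg1, Samd5, Ptprr and Wdr35, from 0.468 to 0.646, and to Fgfr1 Sfrp1, Kbtbd11, Zfp382, Myo16 and Setd1a, from 0.36 to 0.474.

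Other tissues that make FGF21 were checked by their markers. Skeletal muscle markers, 11 of 11 found, summed to 45.2 to 3734 CPM in P278KY mice and 41.1 to 9671 CPM in WT mice, and none of the 11 passed for genotype. The highest sums were in P278KY females 3 and 4, at 3734 and 1382 CPM, and WT females 1 and 2, at 9671 and 2235 CPM. Without these mice Fgf21 ranged from 4.63 to 5.94 CPM in 4 P278KY mice and from 0 to 0.0732 CPM in 4 WT mice. Fgf21 was chosen by this separation, so leaving mice out keeps it, and the part of muscle RNA was not tested. Liver markers summed to 0.563 to 9.91 CPM in P278KY and 1.03 to 5.59 CPM in WT, and fat markers to 2.35 to 27.2 CPM in P278KY and 1.02 to 25.7 CPM in WT. Only 2 of 6 liver markers and 4 of 5 fat markers were fitted, and none of those passed. Ganglion neuron markers were 7.83 to 63.7 CPM in P278KY and 1.84 to 30.6 CPM in WT, with 1 of 7 higher. The highest were P278KY male 7, WT female 10 and WT male 11; the other P278KY mice held 7.83 to 10.2 CPM and the other WT mice 1.84 to 3.32 CPM, so in those 9 mice the marker sums separated the genotypes as Fgf21 did. Schwann cell markers were lower for 3 of 8, with sums of 328.5 to 1233 CPM in P278KY and 1181 to 2024 CPM in WT. Astrocyte markers were higher for 1 of 6, with sums of 5767 to 6844 CPM in P278KY and 5422 to 5926 CPM in WT. Fibroblast and meninges markers were lower for 1 of 6, with sums of 294.3 to 459.9 CPM in P278KY and 401.2 to 1067 CPM in WT. Of 5 neuron markers 1 was higher and 1 lower. The shares over all fitted genes were 2.95% lower and 2.36% higher. The part of these marker shifts in the level of Fgf21 and Gdf15 was not tested, and no marker was at 0 in every mouse.

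**Figure D5:**
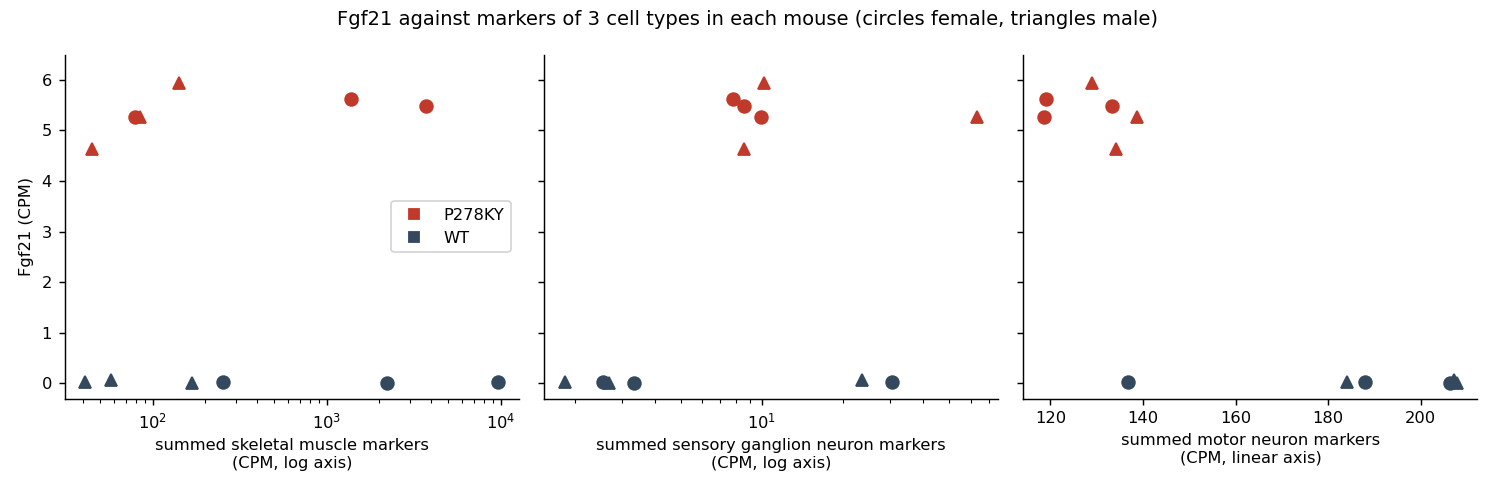
Fgf21 in CPM against the summed CPM of skeletal muscle (left, log axis), sensory ganglion neuron (middle, log axis) and motor neuron markers (right, linear axis) in each of the 12 mice. P278KY mice lie between 4.63 and 5.94 CPM of Fgf21 and WT mice at 0.0732 CPM or less; muscle sums overlap between the genotypes, while ganglion sums separate them apart from WT female 10 and WT male 11.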

How the data were processed

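RNA-seq of whole spinal cord from 12 mice was used, 3 per genotype and sex. Per the labels' protocols, polyadenylated RNA was selected and stranded libraries were sequenced as 75 bp pairs. Per the submitters' processing notes, the authors used Bowtie2 2.2.0 and RSEM 1.2.12; the build was not given in the sources used here. Per the file headers, the authors deposited RSEM's expected counts, in which a read matching several genes is divided among them. TPM, a level relative to transcript length and library, was also deposited. The authors' FPKM column was left aside. Transcript lengths in the deposited tables, per the file headers, are in bases. Columns without a mouse numbered 0. Positions came from GENCODE M21 (GRCm38) by gene identifier.

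Expected counts were rounded, filtered with filterByExpr over the 4 groups and TMM-scaled. CPM is counts per 1e+06 scaled counts of fitted genes. Genes were tested by edgeR's quasi-likelihood method (R 4.3.3, edgeR 4.0.16) on sex and genotype, or on 4 group means for the interaction, with Benjamini-Hochberg adjustment over 17980 genes and a threshold of 0.05; SE is the log2 change over the square root of F. P-values weigh each change against the spread between these mice, where the spread of a gene is drawn toward that of other genes. limma 3.58.1 and DESeq2 1.42.0 served as alternatives, with filters, scalings, pseudocounts of 1 and 0.1 TPM, and mice left out. Intervals are exact at 95% and cover counting error only.

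Genes named were the 5 members, Gars, up to 4 called genes per list by p (or the first where none passed), the 5 nearest patterns per fitted member, and protein-coding genes within 100 kb of Fgf21 or Gdf15; any other gene is marked as picked later, and family levels are given for context. Members and lists were chosen with earlier results of these data known. Of 211 list entries 210 were found. Lists and markers used symbols, of which 155 belong to several genes in the tables.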

Additional observations from a re-analysis of the deposited data

Results flagged for a closer look

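Of 56 sets of 6 mice of 1 genotype, 5 held a mouse whose gap to the nearest other mouse, over the whole range, exceeded Dixon's 95% critical value, and chance alone gives about 1 in 20. Klb was lowest in P278KY female 4, at 0.317 CPM, where the other P278KY mice had 0.481 to 0.579 CPM. Gfral was at 0.0347 CPM in WT male 5, a single count, and at 0 in the other WT mice. Fgf4 was lowest in P278KY male 8, at 0.0663 CPM, where the others had 0.354 to 0.498 CPM. Gfra1 was highest in P278KY male 7, at 84.3 CPM, with the others at 79.5 to 81.1 CPM. Slc7a3 was highest in WT female 10, at 6.07 CPM, with the other WT mice at 5.32 to 5.56 CPM. No member's genotype difference was shown to differ between the sexes.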

How the results depend on the processing

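No paired analysis was possible because mouse numbers are not shared between groups. Mice 1 to 4 were left out for muscle RNA, 7, 10 and 11 for ganglion RNA and 9 to 12 for clock genes, all from earlier results of these data. Fgf21 and Gdf15 kept their direction in each alternative that fitted them; Gdf15 did not pass the stricter filter. The log2 change of Fgf21 was 7.36, and 7.03 with limma voom, 3.75 on log2(TPM + 1), 6.42 on log2(TPM + 0.1), 7.97 without mice 7, 10 and 11, 7.67 without mice 9 to 12, 7.72 in females alone and 7.03 in males alone; with 1 mouse left out it ran from 7.12 to 7.79. That of Gdf15 was 3.43, and 1.01 and 2.71 on the TPM scales. Fgfr1 gave 0.095 and 0.096 on the TPM scales and turned to -0.009 without mice 9 to 12 and -0.004 in females alone. Klb gave 0.728 in males alone and turned to -0.146 in females alone. The 956 genotype calls became 1627 with the DESeq2 Wald test, 1467 with voom, 1606 and 1622 on the TPM scales, 557 without mice 1 to 4, 253 without mice 7, 10 and 11, 84 without mice 9 to 12, 68 in females and 350 in males alone, and 542 to 1385 with 1 mouse left out. They fell to 603 without P278KY female 4, 542 without P278KY male 6, 628 without P278KY male 7 and 623 without WT male 11. The 32 calls among listed genes became 15 without mice 7, 10 and 11, 7 without mice 9 to 12, 5 in females and 21 in males alone; their split of 17 higher and 15 lower became 29 and 7 on both TPM scales. The 16 sex calls became 208 with the Wald test. The interaction count of 0 became 61 with the Wald test, 3 with voom, 1 with no filter, 4 with the stricter filter, 2 and 3 on the TPM scales, 28 without mice 7, 10 and 11, and 0 to 42 with 1 mouse left out (42 without P278KY male 7, 8 without WT female 1 and 8 without WT male 5). Smaller sets hold fewer mice. Without mice 9 to 12, WT male 5 was the only WT male, and without mice 1 to 4, P278KY female 9 and WT female 10 were the only females. The cause of these moves was not tested. Of 21 named genes with a call, 3 (Adm2, Slc7a1 and Slc7a3) kept it in every alternative that fitted them. At the counts of WT Fgf21 and of Gfral, depth limits any ratio.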
